A study of Mus musculus with 9 samples.

Results

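The genes described are Mptx1 and 4 further genes for secreted defence proteins of the gut surface: Mptx2, Ang4, Itln1 and Retnlb. These 5 members of the 27719 genes and loci in the count table were taken by symbol, and Mptx1 was chosen by its low counts in the mice treated with electroacupuncture (EA). Its levels are therefore given as a description, without a test. Colon RNA came from 9 C57BL/6J mice, from a control, a DSS and a DSS + EA group of 3 mice each, with 1 Oxford Nanopore full-length cDNA library per mouse. The control mice drank distilled water. Mice of the DSS and DSS + EA groups drank dextran sodium sulfate (DSS), which injures the colon epithelium, at 2.5% for 7 days. In the DSS + EA group, EA (a weak current passed through needles) was given once a day over 5 days to the ST36 point of the left and right hind leg, for 30 minutes at 2 Hz and 0.2 mA, and began after 5 days of DSS. Age, sex and the day of tissue collection were not given in the labels, and whole colon tissue was used, so that fewer cells of a type and less RNA per cell cannot be told apart.

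Goblet cells are the mucus-secreting cells of the gut epithelium, and in the colon they also release proteins that act on microbes in the lumen. Mptx1 and Mptx2 encode mucosal pentraxins, relatives of the serum pentraxins C-reactive protein and serum amyloid P. Ang4 encodes an angiogenin-type ribonuclease with microbicidal activity, Itln1 encodes intelectin 1, a lectin that binds sugars of microbial surfaces, and Retnlb encodes resistin-like molecule beta, a goblet cell protein that acts on bacteria and is known from colonization and from worm infection. Ang4, Itln1 and Mptx2 are also known from Paneth cells, the antimicrobial cells of the small intestinal crypt.

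Mptx1 and Mptx2 are close copies on chromosome 1, 1053 kb apart, and their sequences are shown because their counts were far apart in the same libraries. In GRCm38, Mptx1 lies on the plus strand at chr1:174330518-174332873 and Mptx2 on the minus strand at chr1:173274382-173277777, each with 2 exons. Their coding sequences have 657 bases, of which 53 differ (91.9% identity). The 120 bases with the most differences are coding bases 180 to 299, shown 5′ to 3′ from the annotated transcripts with the 16 differing bases in capitals.
Mptx1 coding: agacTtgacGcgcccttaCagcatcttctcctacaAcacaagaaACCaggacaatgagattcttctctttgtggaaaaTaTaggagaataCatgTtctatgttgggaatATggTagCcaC
Mptx2 coding: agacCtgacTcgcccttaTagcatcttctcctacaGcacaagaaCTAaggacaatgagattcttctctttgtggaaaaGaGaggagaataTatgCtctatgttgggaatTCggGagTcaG
The bases just before the annotated transcripts were also alike, with 197 identical bases of 228 aligned (86.4%). They are given from RefSeq's GRCm38.p6 sequence, 5′ to 3′ on the strand of the gene, at chr1:174330268-174330517 on the plus strand for Mptx1 and at chr1:173277778-173278006 on the minus strand for Mptx2. Capitals mark bases without an identical partner in the other gene, including 15 at the start of the Mptx1 stretch that lie beyond the shorter Mptx2 stretch.
Mptx1 upstream: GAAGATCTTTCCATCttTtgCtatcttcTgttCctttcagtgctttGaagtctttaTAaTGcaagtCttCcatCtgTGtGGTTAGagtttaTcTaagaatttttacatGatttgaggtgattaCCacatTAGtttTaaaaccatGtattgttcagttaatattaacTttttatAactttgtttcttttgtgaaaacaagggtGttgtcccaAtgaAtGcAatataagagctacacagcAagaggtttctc
Mptx2 upstream: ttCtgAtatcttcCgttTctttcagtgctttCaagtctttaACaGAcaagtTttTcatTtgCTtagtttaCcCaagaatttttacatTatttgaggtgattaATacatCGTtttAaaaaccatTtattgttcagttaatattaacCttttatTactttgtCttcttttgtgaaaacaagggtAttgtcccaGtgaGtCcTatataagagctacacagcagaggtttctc

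Upstream sequence was at hand for 4 of the 5 members, and Retnlb had no entry. The other members lie at chr1:171518122-171535294 on the minus strand (Itln1), chr14:51763878-51773590 on the minus strand (Ang4) and chr16:48816856-48818892 on the plus strand (Retnlb), with 8, 2 and 4 exons. Motifs were looked up on both strands in up to 250 bases before the annotated transcript, and distances are counted from its first base. CAGATG, an E-box, was found 180 to 175 bases before Mptx1 and 235 to 230 bases before Ang4, and in 14.4% of all 32851 upstream sequences. TATAAA was found on the reverse strand at 2 places before Mptx1 (12.4% of all sequences), TTCNNNGAA 192 to 184 bases before Ang4 (7.02%), and TTTATNG 107 to 101 bases before Mptx2 (9.81%). CAGCTG (13.0%) and a STAT6-type element with a 4-base gap (5.85%) were found before none of them, and the 219 bases before Itln1 held none of these letters. Mptx1, Ang4 and Itln1 therefore shared no match among the motifs searched.

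Depth ranged from 2627695 to 4235576 counts per library. The floor used here, 3 counts, was worth 0.647 to 1.14 CPM (counts scaled to TMM-adjusted library size). The DSS mouse 2 library stood apart in its relation to control mouse 2. Of the 1409 genes with at least 300 counts in control mouse 2, none was below 0.995% of that count in DSS mouse 2, while the lowest share was 0 in each of the other 5 mice that drank DSS. Genes near this lower edge were Pla2g4c (0.995%), Gsdmc3 (1.14%), Mptx1 and Ang4 (each 1.2%) and Itln1 (1.25%). The unannotated locus ONT.14142 had 652 counts in control mouse 2, 16 in DSS mouse 2 and 0 in the other 7 libraries. Other unannotated loci with few or no counts in DSS mice 1 and 3 had shares from low to high. In control mouse 2 and DSS mouse 2, ONT.4199 had 885 and 16 counts, ONT.4204 had 960 and 707, and ONT.14140 had 2324 and 2520. What links these 2 libraries was not tested. Whether reads of control mouse 2 were counted in the DSS mouse 2 library was not tested, so the counts of Mptx1, Ang4 and Itln1 in DSS mouse 2 are uncertain, and results that rest on that library are given with and without it. Colonocyte markers were counted in every library (788.3 to 26356 CPM summed over 8 genes), and 7 small intestine markers summed to 1266 to 2243 CPM in the control mice, 4.95 to 182.2 CPM in the DSS mice and 411.0 to 822.8 CPM in the DSS + EA mice. Of these 7, the fatty acid binding protein genes Fabp2 and Fabp6 reached 5848 counts in a control mouse and 412 in a DSS + EA mouse, while the enzyme genes Lct and Sis had at most 2 and 7 counts in any mouse. Markers of pancreatic acinar cells summed to between 549.9 and 35237 CPM in the DSS + EA mice, and the sum of 8 Paneth cell markers was highest in DSS + EA mouse 2 and 9.58 to 30.3 CPM in the other mice. In DSS + EA mouse 2 the defensin genes Defa22, Defa24 and Defa30 had 32, 103 and 41 counts, against 0 to 4 in the other mice. The other Paneth cell markers did not stand apart there, with 26 counts of Lyz1 (8 to 32 in the other mice), 66 of Mmp7 (2 to 85) and at most 2 of Defa5, Defa17 and Defa26.

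**Figure D1:**
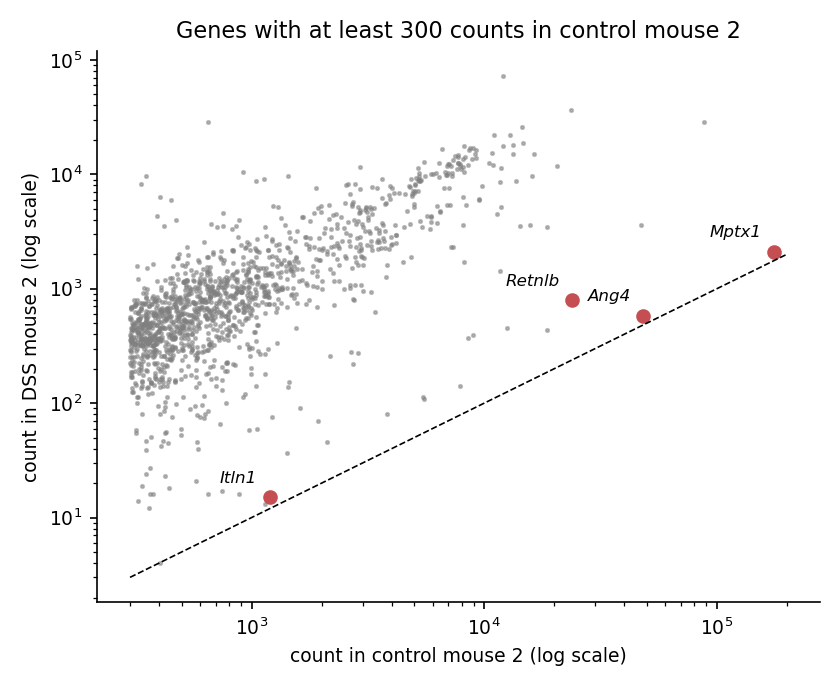
Each point is a gene with at least 300 counts in control mouse 2, with its count there on the horizontal log axis and its count in DSS mouse 2 on the vertical log axis; the dashed line marks 1%. Mptx1, Ang4 and Itln1 lie along the lower edge at 1.2% to 1.25%, and Retnlb lies above it at 3.33%.

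Mptx1 was among the most abundant transcripts of the control colon. It took 2.12% of all counts in control mouse 1 (Wilson 95% interval 2.11 to 2.14%), 5.44% in control mouse 2 (5.42 to 5.47%) and 1.52% in control mouse 3 (1.5 to 1.53%). Per kilobase of transcript, its level of 18971 to 72582 CPM ranked 1, 1 and 2 among 22022 genes with a known length. On the same scale Ang4 stood at 6149 to 22472 CPM per kilobase (ranks 3 to 11) and Retnlb at 3308 to 11324 (ranks 4 to 30), while Itln1 stood at 68.3 to 345.8 (ranks 305 to 973) and Mptx2 at no more than 2.08. In each control mouse the levels per kilobase thus ran in the order Mptx1, Ang4, Retnlb, Itln1 and Mptx2. The 5 genes together took 2.84%, 7.72% and 2.36% of the counts of the control mice. They took 0.158%, 0.0824% and 0.00665% in the DSS mice and 0.133%, 0.171% and 0.168% in the DSS + EA mice.

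Mptx1 (ENSMUSG00000026531) had 79374, 175804 and 39865 counts in control mice 1 to 3, 16, 2103 and 9 counts in DSS mice 1 to 3, and 178, 37 and 268 counts in DSS + EA mice 1 to 3. All 6 mice that drank DSS lay below all 3 control mice, the DSS and DSS + EA mice overlapped, and DSS mouse 2 was the highest of the 6. Means were 31054 ± 23456 CPM for control mice, 153.7 ± 259.5 CPM for DSS mice and 50.6 ± 35.4 CPM for DSS + EA mice (SD, n = 3 each). The median of the DSS group, 5.11 CPM, was far from its mean because of DSS mouse 2, and the median of the DSS + EA group was 53.8 CPM. Without DSS mouse 2 the DSS mean was 3.95 CPM (2 mice, 2.79 and 5.11 CPM). The direction between these 2 groups therefore turned on 1 library.

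Mptx2 (ENSMUSG00000079180) had 2, 5 and 0 counts in control mice, 0 in each DSS mouse, and 0, 2 and 0 in the DSS + EA mice. Only 1 library exceeded the floor of 3 counts, and the gene did not pass the filter on low counts. In the control mice 295043 counts were assigned to Mptx1 and 7 to Mptx2, although 91.9% of their coding bases are the same. How the reads were assigned to such copies is not given in the sources used here, so the few Mptx2 counts are uncertain. A count of 0 in a DSS library allows a level of up to 0.957 CPM at the 3-count floor in DSS mouse 1.

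Ang4 (ENSMUSG00000060615) had 17290, 48299 and 13933 counts in control mice, 27, 578 and 6 in the DSS mice, and 71, 28 and 150 in the DSS + EA mice. Its order of mice within the DSS + EA group, with mouse 3 highest and mouse 2 lowest, was that of Mptx1, and DSS mouse 2 was again the highest of the mice that drank DSS. The group means were 8530 ± 6428, 45.0 ± 69.0 and 26.3 ± 18.9 CPM (SD, n = 3 each), and the DSS mean was 5.24 CPM without DSS mouse 2. Control and DSS-drinking mice did not overlap, which was so for 52.0% of all genes tested between control and DSS mice. The DSS and DSS + EA mice did overlap.

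Itln1 (ENSMUSG00000038209) had 309, 1196 and 337 counts in control mice, 1, 15 and 1 in the DSS mice, and 4, 18 and 2 in the DSS + EA mice. Of the 6 mice that drank DSS, 3 were at or under the floor of 3 counts. The means were 200.2 ± 170.2, 1.29 ± 1.69 and 2.84 ± 3.33 CPM (SD, n = 3 each), and the DSS mean was 0.314 CPM without DSS mouse 2. The highest DSS + EA mouse was mouse 2, the library with the counts of 3 defensin genes, and it held the lowest count of Mptx1 and Ang4 in that group. The part of Paneth cells in its Itln1 count was not tested.

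Retnlb (ENSMUSG00000022650) had 9132, 23893 and 7995 counts in control mice, 5005, 795 and 199 in the DSS mice, and 4087, 4787 and 5085 in the DSS + EA mice. Unlike the other members, it kept counts of 4087 or more in all 3 DSS + EA mice and in DSS mouse 1. The means were 4408 ± 3031, 610.1 ± 856.7 and 1536 ± 275.3 CPM (SD, n = 3 each), and the DSS mean was 829.5 CPM without DSS mouse 2. Neither the DSS nor the DSS + EA mice overlapped with the control mice, which was so for 52.0% and 32.2% of all genes tested. DSS mouse 1, at 1597 CPM, lay within the range of the DSS + EA mice.

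**Figure D2:**
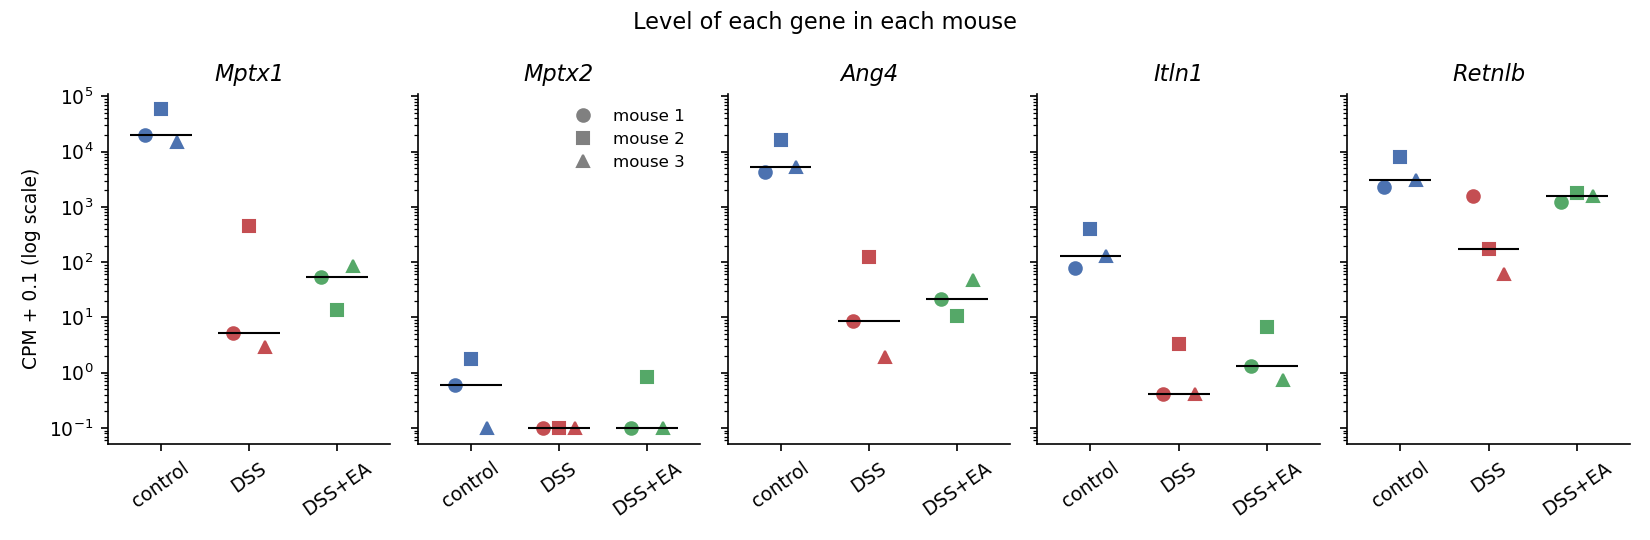
Level of each member in each mouse, as CPM + 0.1 on a log axis, with mice 1, 2 and 3 of a group as circle, square and triangle and the group median as a line. Mptx1, Ang4 and Itln1 are low in all 6 mice that drank DSS, whereas Retnlb lies between 1234 and 1773 CPM in the DSS + EA mice.

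To ask how the members moved with colitis, the DSS group was compared with the control group by edgeR's quasi-likelihood test over all 12566 genes that passed the filter, and a gene was called at a Benjamini-Hochberg adjusted p under 0.05. All 3 members tested fell with DSS, where 40.9% of all genes tested were called, 19.5% lower and 21.5% higher, and the median log2 fold change of all genes was 0.02. Ang4 fell by 7.55 on the log2 scale (SE 1.47, adjusted p = 0.00312), and Itln1 fell by 7.07 (SE 1.02, adjusted p = 0.000661). Itln1 passed the filter only through its control counts, so its high level there is part of why it was tested. With no filter, its value by the same edgeR test was -7.12 (adjusted p = 5.08e-05). Retnlb fell by 2.85 (SE 1.00, adjusted p = 0.0439). Ang4 and Itln1 also met the study's rule for a differentially expressed gene (DEG), a log2 fold change beyond 2.5 and an unadjusted P under 0.01, which 3.57% of genes met in the lower direction, and Retnlb did not. The fitted log2 fold change of Mptx1 was -7.65, the 5th lowest of 12566, and is given without a test.

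Leaving out single mice bore on these values in different ways. Without DSS mouse 2 the log2 fold change was -12.92 for Mptx1, -10.65 for Ang4 (adjusted p = 0.000778) and -9.13 for Itln1 (adjusted p = 0.00199), by the same edgeR fit. The call of Retnlb was lost without DSS mouse 2 (-2.4, adjusted p = 0.123) and without control mouse 2 (-2.15, adjusted p = 0.141), and without DSS mouse 1 its value was -5.27 (adjusted p = 0.000329). Over 9 fits that each left out 1 mouse, Retnlb was called in 1.

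For the effect of EA in mice with colitis, the DSS + EA group was compared with the DSS group. None of the 3 members tested was called, where 35.5% of all genes tested were called in either direction (17.2% higher, 18.3% lower). By edgeR's quasi-likelihood test, Ang4 differed by -0.78 on the log2 scale (SE 1.14, adjusted p = 0.618), Itln1 by 0.88 (SE 1.15, adjusted p = 0.575) and Retnlb by 1.33 (SE 0.95, adjusted p = 0.293). At an unadjusted p under 0.05 the count was 0 as well, and DESeq2 also called 0. With these standard errors, changes of several-fold in either direction could have gone undetected. The fitted value of Mptx1, -1.60, and that of Ang4 both took the opposite sign without DSS mouse 2, at 3.66 and 2.33 (adjusted p = 0.0918 for Ang4). Retnlb passed the threshold without DSS mouse 1, at 3.75 (adjusted p = 0.00166), the DSS mouse with the highest summed goblet cell markers (7894 CPM against 903.1 and 2637 CPM).

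The DSS + EA group was last compared with the control group, a comparison in which far fewer genes were called, 457 genes or 3.64% in either direction with 0.637% lower and 3.0% higher. Of the 3 members tested, 2 fell, though Itln1 passed the filter only through its control counts. Ang4 was lower by -8.33 on the log2 scale (SE 1.53, adjusted p = 0.0168) and Itln1 by -6.19 (SE 0.97, adjusted p = 0.00874), by edgeR's quasi-likelihood test, and both were DEGs by the study's rule, which 0.334% of genes met in the lower direction. Retnlb differed by -1.52 (SE 0.95, adjusted p = 0.466), although all 3 DSS + EA mice lay below all 3 control mice. Groups did not overlap for 32.2% of all genes tested in this comparison. The value for Mptx1 was -9.26, the 2nd lowest of 12566, without a test. The call of Ang4 held in 4 of 9 fits that each left out 1 mouse and was lost, for example, without DSS + EA mouse 3 (-9.09, adjusted p = 0.0788). The call of Itln1 held in 8 of the 9 and was lost without DSS + EA mouse 3 (-5.73, adjusted p = 0.0596). Each group enters 2 of the 3 comparisons, so the 3 sets of values are not independent of each other.

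**Figure D3:**
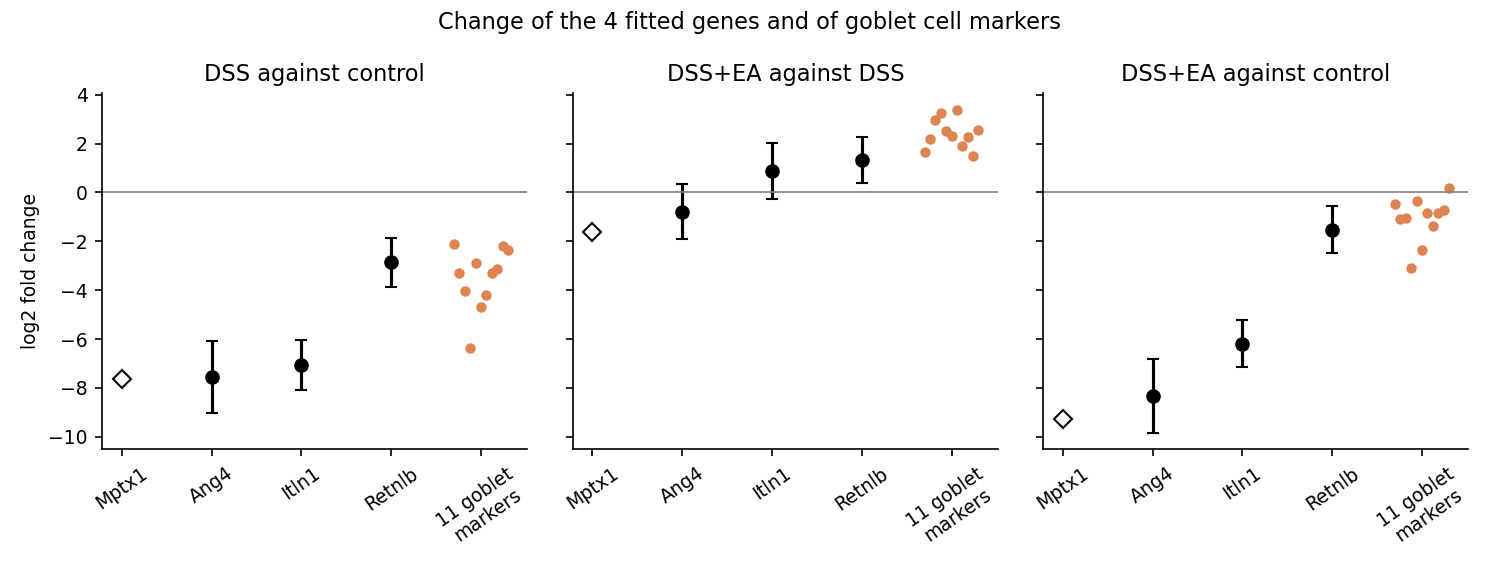
Log2 fold changes in the 3 comparisons for Mptx1 (open diamond, not tested), Ang4, Itln1 and Retnlb (filled circles with 1 standard error either side), and for 11 goblet cell markers (small orange circles, 1 per gene). Against control, Ang4 and Itln1 lie below -6 in both the DSS and the DSS + EA group, below all 11 goblet cell markers, of which Clca1 was the lowest with DSS at -6.36.

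Goblet cell markers were followed in the same mice. All 11 fell with DSS (median log2 fold change -3.28), 9 of 11 rose with EA against DSS (median 2.31), and 0 of 11 were called between the DSS + EA and control groups (median -0.86) by edgeR's quasi-likelihood test. Of all genes tested, 19.5% fell with DSS, 17.2% rose with EA, and 3.64% were called between the DSS + EA and control groups. In that last comparison 4 were lower at an unadjusted p under 0.05 and DESeq2 called 2 lower. Without DSS mouse 2 the calls were 10 lower, 6 higher and 1 lower of 11 in the 3 comparisons. Their summed level was 24803 to 40610 CPM in the control mice, 903.1 to 7894 CPM in the DSS mice and 17741 to 18933 CPM in the DSS + EA mice, and no 2 groups overlapped. For 10 of the 11 markers the DSS + EA mice did not overlap with the control mice (32.2% of all genes tested), and of these Tff3 was higher and the others lower. Most of the sum in the DSS + EA mice came from Spink4, Tff3 and Agr2, at 4839 to 6193, 4872 to 5485 and 3591 to 4543 CPM, while Clca1 was at 356.7 to 549.6 CPM against 2340 to 6158 CPM in the control mice. The mucin gene Muc2, which encodes the main gel-forming mucin of the colon, fell by 3.29 with DSS (adjusted p = 0.0095). Clca1, a goblet cell protein that processes mucus, fell by 6.36 with DSS (adjusted p = 0.000755), the most of the 11, and rose by 3.27 with EA (adjusted p = 0.0129).

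Set against the summed counts of these 11 markers, Retnlb gave values unlike those of the other members. Retnlb had 92.8, 194.1 and 108.0 counts per 1000 goblet marker counts in control mice, 202.4, 65.0 and 68.2 in the DSS mice, and 69.6, 93.7 and 86.0 in the DSS + EA mice. On this scale the 3 groups overlapped. Mptx1 had 806.9, 1428 and 538.7 counts per 1000 in the control mice, 0.647, 171.9 and 3.09 in the DSS mice, and 3.03, 0.724 and 4.53 in the DSS + EA mice. Ang4 had 175.8, 392.3 and 188.3, then 1.09, 47.2 and 2.06, then 1.21, 0.548 and 2.54 counts per 1000 in the same order of mice. The DSS + EA mice thus held few Mptx1 or Ang4 counts for each goblet marker count, although their goblet marker sums were also below those of the control mice. Itln1 ranged from 3.14 to 9.72 per 1000 in the control mice, from 0.0404 to 1.23 in the DSS mice and from 0.0338 to 0.352 in the DSS + EA mice. For Ang4 and Itln1 neither DSS-drinking group overlapped with the control group on this scale. Of all genes tested, 0.565% were lower without overlap in the DSS mice and 0.907% in the DSS + EA mice. Mptx1 also lay below control in both groups, but its low level in the treated mice chose it, so these shares do not bear on it. This scale rests on the markers chosen. Per 1000 counts of 7 pan-epithelial markers, Retnlb had 458.7, 1651 and 544.0 counts in control mice, 421.4, 79.3 and 62.3 in the DSS mice and 249.1, 471.8 and 370.8 in the DSS + EA mice, so that the DSS mice lay below the control mice without overlap (ratio of means 4.71, against 1.18 per goblet marker count) and the DSS + EA mice overlapped with them. On the pan-epithelial scale Ang4 and Itln1 were again below control without overlap in both groups, where 4.76% of all genes tested were so in the DSS mice and 5.15% in the DSS + EA mice. Mptx1 was below control there too, with the same limit. With 3 mice against 3, an exact two-sided permutation test of such a ratio cannot go below p = 0.1, so none was run.

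**Figure D4:**
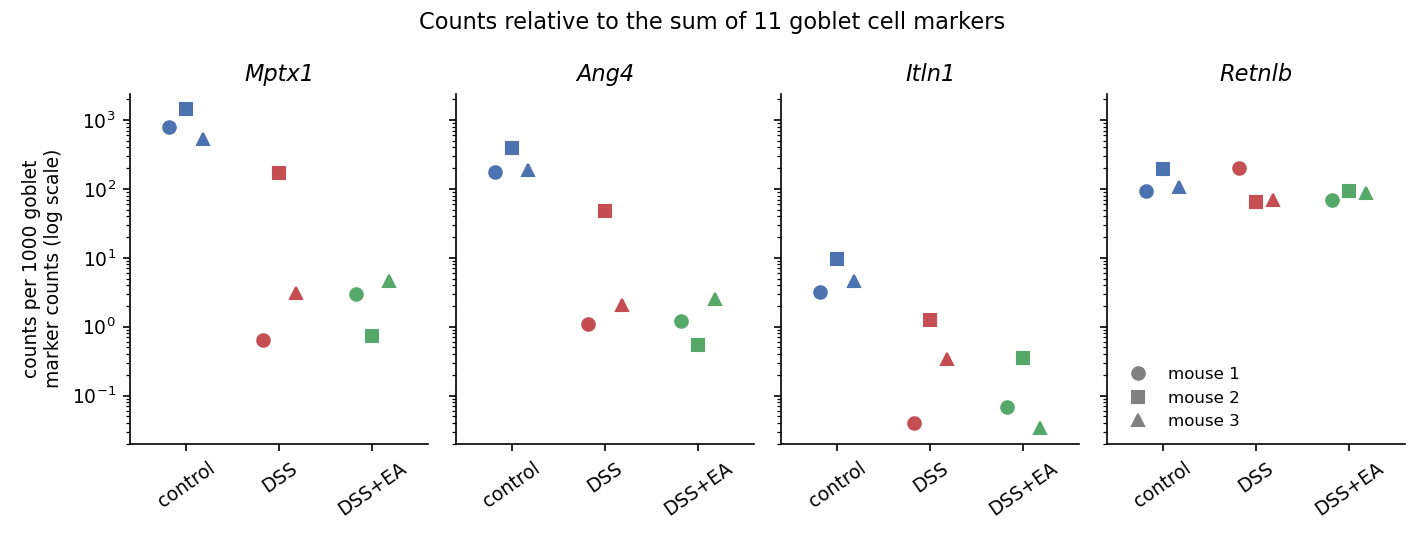
Counts of 4 members per 1000 counts of 11 goblet cell markers, for each mouse on a log axis, with mice 1, 2 and 3 as circle, square and triangle. Retnlb stays between 65.0 and 202.4 in every mouse, while Mptx1, Ang4 and Itln1 lie below the control mice in all mice that drank DSS.

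The profiles of the members over the 9 mice were set beside those of other genes. The likeness of a pair was measured as the root mean square difference between their log2 CPM profiles, each centred on its own mean over the 9 mice, among 11181 annotated genes that passed the filter. Ang4 was the gene most like Mptx1 (0.87), followed by Itln1 (2.44), Pla2g4c (2.85), a phospholipase gene, Clca1 (2.91) and Gsdmc4 (3.17), a gasdermin gene. The Mptx1 profile includes the low counts in treated mice that chose it, and the members were chosen with earlier results known. The ranks therefore describe the profiles and do not bear on whether these genes form a group. Retnlb came 101st, at 4.2, while Mptx1 came 11108th among the genes compared with Retnlb, so the ranks are not symmetric. In the control mice Pla2g4c had 51, 402 and 38 counts, and elsewhere at most 4. Gsdmc4 had 2058 to 7861 counts in control mice, 36 to 141 in the DSS mice and 329 to 679 in the DSS + EA mice.

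The genes most like Retnlb formed a different list. They were Spink4 (0.54), a goblet cell protease inhibitor gene, 5330417C22Rik (0.58) and Sult1d1 (0.60), a sulfotransferase gene. Spink4 had 21749 to 47321 counts in control mice, 923 to 7691 in the DSS mice and 13062 to 19679 in the DSS + EA mice. Those most like Ang4 were Mptx1 (0.87), Itln1 (1.78) and Pla2g4c (2.12), and those most like Itln1 were Pla2g4c (0.96), Retnla (1.39) and Gsdmc2 (1.45). Without DSS mouse 2, Ang4 (0.87) and Itln1 (2.49) were still the genes most like Mptx1, with Clca1 (2.94) now before Pla2g4c (2.95), and Retnlb came 67th at 4.26. Spink4 (0.54) was still the gene most like Retnlb, followed by Muc2 (0.59) and Creb3l4 (0.6), and Pla2g4c (1.02) that most like Itln1, followed by Gsdmc3 (1.42). These values describe 9 mice in 3 groups, and differences between the groups make up most of each profile.

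The number of Mptx1 counts per Ang4 count was 4.59, 3.64 and 2.86 in the control mice. It was 0.593, 3.64 and 1.5 in the DSS mice and 2.51, 1.32 and 1.79 in the DSS + EA mice. Mptx1 thus made up 74.1% to 82.1% of the summed counts of both genes in the control mice and 56.9% to 71.5% in the DSS + EA mice. The Wilson 95% interval of DSS + EA mouse 1, 65.6 to 76.7%, covered the 74.1% of control mouse 3. The share in DSS + EA mouse 2 rests on 37 and 28 counts. In DSS mouse 2 the ratio of 3.64 was that of control mouse 2, and in DSS mouse 1, with 16 and 27 counts, Mptx1 made up 37.2% (Wilson 95% interval 24.4 to 52.1%). Per Itln1 count, there were 118.3 to 256.9 Mptx1 counts in control mice and 44.5, 2.06 and 134.0 in the DSS + EA mice.

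Relatives of the members were looked at by family. Of the pentraxin relatives none passed the filter. Apcs and Crp, the genes of serum amyloid P and C-reactive protein, and Ptx4 had 0 counts in every mouse, while Ptx3, a long pentraxin made by inflamed tissue, had 1, 0 and 0 counts in control mice, 6, 145 and 23 in the DSS mice and 1 in each DSS + EA mouse. Nptx1, Nptx2 and Nptxr, the neuronal pentraxin genes, had at most 14 counts. The course of Ptx3 was thus opposite in its values to that of Mptx1 in the DSS mice.

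Ang, an angiogenin gene 85.4% identical to Ang4 in coding bases, had 218, 150 and 172 counts in control mice, 45, 35 and 31 in the DSS mice, and 78, 74 and 77 in the DSS + EA mice. No groups overlapped. It fell by 2.44 with DSS on the log2 scale (SE 0.26, adjusted p = 0.00015 by edgeR's quasi-likelihood test), rose by 1.26 with EA against DSS (SE 0.26, adjusted p = 0.00547), and remained lower than control by -1.17 (SE 0.25, adjusted p = 0.0304). Ang2, Ang5 and Ang6, which are 86.8% to 88.7% identical to Ang4, had 0 or 1 counts in every mouse. Rnase6, an antimicrobial ribonuclease gene, fell by 2.56 with DSS (adjusted p = 0.000688) and rose by 2.47 with EA (adjusted p = 0.00143). Rnase4, which shares its first exons with Ang, was not called in any comparison (log2 fold changes -0.56, -0.25 and -0.81). Rnase1, the pancreatic ribonuclease gene, had 65, 4965 and 2625 counts in the DSS + EA mice, 2 to 12 in the DSS mice and 0 to 3 in the control mice. Its counts followed the acinar markers over the DSS + EA mice, and the part of pancreatic tissue in them was not tested.

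The resistin family moved in both directions. Retnla, known from macrophages and epithelium in type 2 responses, had 99, 223 and 125 counts in control mice, 1, 7 and 14 in the DSS mice and 10, 17 and 3 in the DSS + EA mice. It fell by 4.56 with DSS (SE 0.73, adjusted p = 0.00112 by edgeR's quasi-likelihood test) and was lower in DSS + EA mice than in controls by -3.85 (SE 0.70, adjusted p = 0.0162). Retnla passed the filter only through its control counts, so its high level there is part of why it was tested. Its difference between the DSS + EA and DSS groups was 0.71 (adjusted p = 0.528). Retnla lies close to Retnlb on chromosome 16, and it was among the 3 genes most like Itln1 (1.39) but not among the 3 most like Retnlb. Retn, the adipocyte resistin gene, fell by 2.43 with DSS (adjusted p = 0.0146). Retnlg, known from neutrophils, had 14 to 18 counts in control mice, 341, 2961 and 4676 in the DSS mice and 174 to 306 in the DSS + EA mice. It rose by 7.19 with DSS (adjusted p = 0.0003) and fell by 3.25 with EA (adjusted p = 0.00746), and the neutrophil markers summed to 4389 to 25704 CPM in the DSS mice against 1104 to 1520 CPM in the DSS + EA mice. Retnlb shares 81.3% of its aligned coding bases with Retnlg and 74.6% with Retnla. Itln2 and Itlnb were not analysed here.

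Genes of other secreted defence proteins of the mucosa moved in both directions. Of 23 such genes tested, 10 rose and 6 fell with DSS (median log2 fold change 0.65), 4 rose and 7 fell with EA against DSS (0.47), and 9 were higher in DSS + EA mice than in controls (1.58). Without DSS mouse 2 the counts were 10 and 4 (median 0.81), 3 and 7 (0.42), and 9 (1.59). The medians of all genes tested were 0.02, -0.02 and 0.00. Of all genes tested, 21.5% rose and 19.5% fell with DSS, 17.2% rose and 18.3% fell with EA, and 3.0% were above control. In the last comparison no gene of the list was called lower by edgeR's quasi-likelihood test or by DESeq2, and 2 were lower at an unadjusted p under 0.05. Among the largest rises with DSS were those of the calprotectin subunits S100a8 (13.11, adjusted p = 5.11e-05) and S100a9 (0, 2 and 1 counts in control mice and 1246, 23946 and 12825 in the DSS mice). Ltf (lactoferrin) had 0 counts in all control mice and 31, 652 and 166 in the DSS mice, and Camp (cathelicidin) rose by 9.14 (adjusted p = 0.000646). With all control counts of S100a9 and Ltf at or under the floor, their fitted changes against control depend on the prior count and are not given. With EA against DSS, Camp fell by 7.84 (adjusted p = 0.00142) and S100a8 fell by 4.65 (adjusted p = 0.00211), and in the DSS + EA mice S100a8 lay 8.46 above control. Camp passed the filter only through its DSS counts, so its high level there is part of why it was tested. S100a8, S100a9 and Camp are known from neutrophils and are themselves 3 of the 8 neutrophil markers. The other 5 (Csf3r, Cxcr2, Mmp8, Ly6g and Ngp) summed to 16.3 to 148.8 CPM in the control mice, 2249 to 2689 CPM in the DSS mice and 523.6 to 1044 CPM in the DSS + EA mice, and their part in these values was not tested.

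Among the epithelial genes of that list, Reg4, a C-type lectin of secretory cells, fell by 4.27 with DSS (adjusted p = 0.00363 by edgeR's quasi-likelihood test), and its difference of 2.06 between the DSS + EA and DSS groups missed the threshold (adjusted p = 0.0632). Zg16, a goblet cell lectin that binds Gram-positive bacteria, fell by 2.02 with DSS (adjusted p = 0.00856) and rose by 2.7 with EA (adjusted p = 0.00341). Lypd8, a colonocyte protein that holds flagellated bacteria away from the epithelium, rose by 1.92 with EA (adjusted p = 0.0128). Reg3b and Reg3g, antibacterial lectins, had 41783 and 12773 counts in DSS mouse 1 and 27857 to 75698 and 5566 to 19302 counts in the DSS + EA mice, but spread so widely that neither was called in any comparison. Reg1 and Reg3a passed the filter only through their DSS + EA counts, so their high level there is part of why they were tested. They rose by 11.74 with EA (adjusted p = 0.00164) and 9.03 (adjusted p = 0.00254), in the libraries that also held acinar marker counts. The part of pancreatic tissue in those values was not tested. Pla2g2a, a bactericidal phospholipase, was higher than control with DSS (3.22, adjusted p = 0.000591) and with DSS + EA (2.88, adjusted p = 0.00874).

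**Figure D5:**
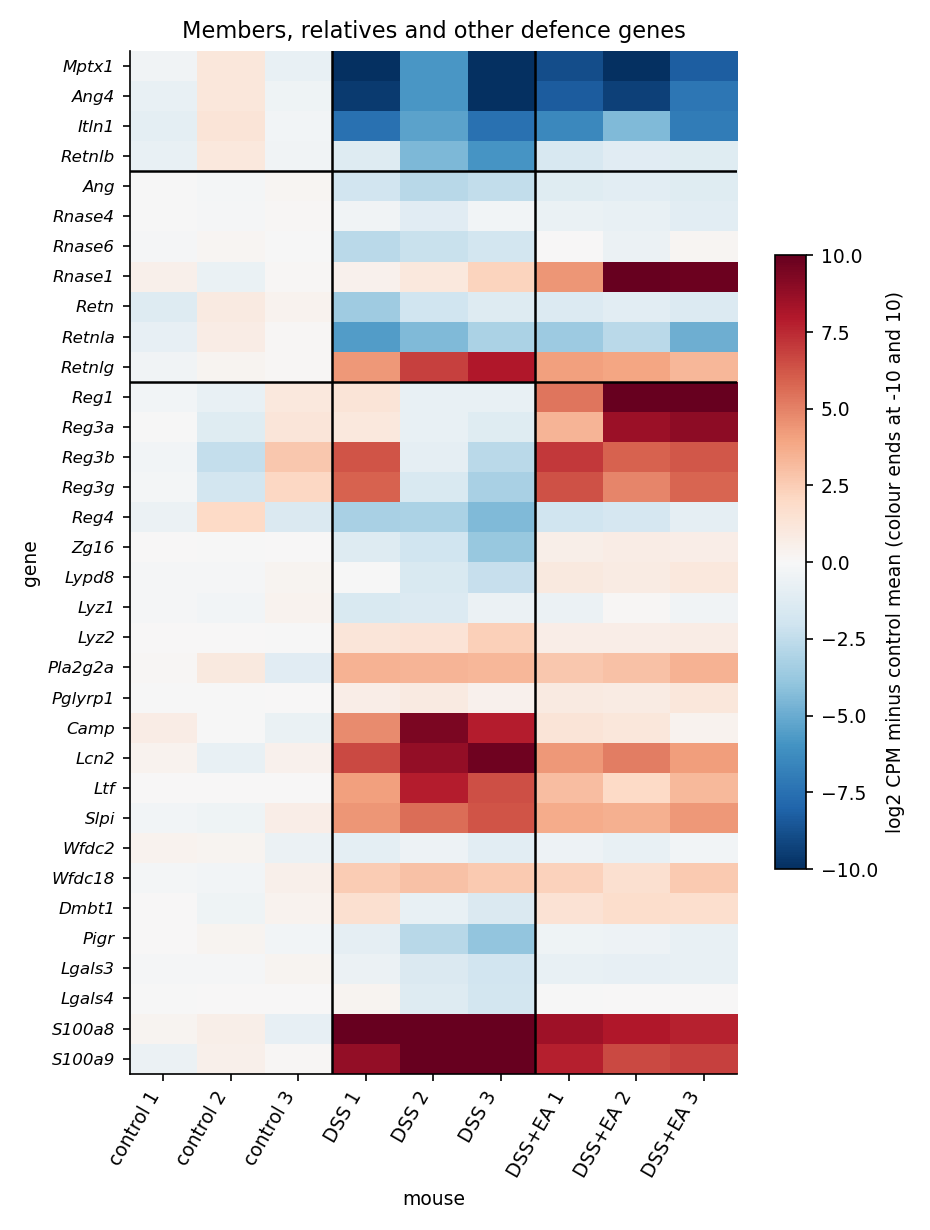
Log2 CPM of each gene in each mouse minus its mean over the 3 control mice (blue lower, red higher, colour ends at -10 and 10), for 4 members, 7 relatives and 23 other secreted defence genes. Mptx1, Ang4 and Itln1 are blue in all 6 mice that drank DSS, while most of the other defence genes are red or near 0 in the DSS + EA mice.

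Transcription factors of goblet and gut epithelial cells took the course of the goblet cell markers only in part. Of 12 tested, 9 fell with DSS (median -2.16) and 6 rose with EA against DSS (median 1.70), while the other 3 and 6 were not called. Of all genes tested, 19.5% fell with DSS and 17.2% rose with EA. None was called between the DSS + EA and control groups (median -0.53) by edgeR's quasi-likelihood test or by DESeq2, and 1 was lower at an unadjusted p under 0.05. Atoh1, the factor that commits cells to the secretory lineage, had 147, 95 and 101 counts in control mice, 0, 2 and 0 in the DSS mice and 99, 73 and 105 in the DSS + EA mice. Spdef, which drives goblet cell maturation, fell by 3.19 with DSS (adjusted p = 0.000254) and rose by 2.56 with EA (adjusted p = 0.00129). Foxa3, a forkhead factor of the same lineage, fell by 3.45 and rose by 2.64. Foxa2, another, had 23, 5 and 10 counts in control mice, 0, 3 and 0 in the DSS mice and 13, 6 and 7 in the DSS + EA mice. All its DSS counts were at or under the floor, so its fitted changes are not given. Klf4, another factor of the list, took a course unlike theirs, with means of 52.8 CPM in control, 49.2 CPM in DSS and 34.6 CPM in DSS + EA mice. Gfi1, a secretory lineage factor, had 0 to 5 counts and did not pass the filter.

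The type 2 cytokines known to induce Retnlb, Ang4 and Itln1 were near or below the floor in all groups. Il13 had 0 counts in every mouse, Il4 had 0 to 3, Il5 had 0 to 4 and Il25 had 0 or 1. Their levels could not be compared at this depth. Of 9 genes of the list of type 2 and IL-22 signals that were tested, 4 rose with DSS, 3 fell with EA against DSS, and 3 were higher in DSS + EA mice than in controls. The shares of all genes tested were 21.5%, 18.3% and 3.0% in the same order. Il33, an epithelial and stromal alarm cytokine, rose by 4.49 with DSS (adjusted p = 0.000674) and was 2.71 above control in the DSS + EA group (adjusted p = 0.0489). Il1rl1, its receptor, rose by 3.59 (adjusted p = 0.00137), and Il4ra, the receptor chain shared by IL-4 and IL-13, rose by 3.42 with DSS (adjusted p = 6.15e-05) and fell by 2.09 with EA (adjusted p = 0.0009). Il33 fell by 1.79 with EA (adjusted p = 0.0294). Il1rl1 and Il4ra lay 2.51 (adjusted p = 0.0478) and 1.32 (adjusted p = 0.0356) above control in DSS + EA mice. Stat3 rose by 1.94 with DSS (adjusted p = 0.000421) and fell by 1.52 with EA (adjusted p = 0.00209). Il22 had 64 counts in DSS mouse 2, 0 in the control mice and 0 to 7 in the other mice.

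Of 6 genes of microbial sensing that were tested, 2 rose and 1 fell with DSS, and 1 rose with EA. Of all genes tested, 21.5% rose and 19.5% fell with DSS and 17.2% rose with EA, so these few calls do not set the list apart. Nlrp6, a sensor known from goblet cells and the colon epithelium, had 284, 176 and 175 counts in control mice, 32, 9 and 3 in the DSS mice and 253, 191 and 207 in the DSS + EA mice. It fell by 3.94 with DSS (SE 0.60, adjusted p = 0.000872 by edgeR's quasi-likelihood test) and rose by 4.06 with EA (SE 0.60, adjusted p = 0.00132). Its difference between the DSS + EA and control groups was 0.11 (SE 0.50, adjusted p = 0.939). Tlr2 and Myd88, a receptor for bacterial lipoproteins and its adaptor, rose by 1.31 with DSS (adjusted p = 0.0234) and 1.29 (adjusted p = 0.00939). Tlr5, the flagellin receptor, had 0 to 2 counts, and Nod2 and Ripk2 did not pass the filter.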

How the data were processed

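Colon RNA of 9 mice (3 per group, grouped by the labels of the samples) was read as PCR-amplified full-length cDNA on a PromethION instrument. The authors deposited raw counts of reads for each gene. The genome build was mm10 in the submitters' processing notes, and the aligner, counter and use of strand are not given in the sources used here. Reads of near-identical or overlapping genes may therefore be divided between them. Of 27733 lines, 14 without counts were skipped.

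Tests were run with edgeR 4.0.16 in R 4.3.3 (TMM normalization, filterByExpr by group, prior count 0.125, quasi-likelihood F test) in 1 fit over 9 libraries with group as the only term, and p-values were adjusted over all 12566 genes tested. CPM use TMM-adjusted totals. Mptx1 was left out of tests. P-values weigh the difference between groups against the spread between these mice. PCR copies were not told apart from molecules, so intervals and floors cover counting error only. The fit was tested on simulated counts with the same spread for every gene. That does not cover genes that vary as widely as the members. Python 3.11.15 with pandas 2.3.3, Biopython 1.88 and matplotlib 3.10.9 was used for the rest, with positions and lengths from GENCODE M21 (GRCm38) and upstream sequence from RefSeq (GRCm38.p6).

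The members and lists were chosen with earlier results of these data known. Named genes are the members, their family relatives, up to 4 called genes with the largest fold change per list and comparison, list members at the floor, the 5 genes most like Mptx1 and the 3 most like each other member. Genes named beside these (Muc2, Reg3b, Reg3g, Zg16, Lypd8, ONT.14142 and others), the comparison of control mouse 2 with DSS mouse 2, and the means, profile likeness and list counts without DSS mouse 2 were chosen after their values were seen. Alternatives were DESeq2 1.42.0, RLE size factors, library totals, no filter, a mean of at least 20 counts, 2-group fits, a replicate block, the study's rule, a prior count of 2 and each mouse left out in turn. Protein sequences of the members and upstream sequence of Retnlb were not used here.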

Additional observations from a re-analysis of the deposited data

How the results depend on the processing

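With 3 mice per group the limits are the spread between mice and the counts under the floor for Itln1 and Mptx2. RLE size factors, library totals, DESeq2, no filter, and a prior count of 2 kept the direction and the call of Ang4, Itln1 and Retnlb in all 3 comparisons, and no scaling moved the median of all genes by more than 0.07 (log2). DESeq2 called 703 genes between the DSS + EA and control groups, against 457. Mptx2, tested where no filter was applied, was not called (log2 fold changes -4.35, 2.82 and -1.52, adjusted p = 0.096, 0.337 and 0.716). With only the groups compared in a fit, 1147 genes and 26 list genes were called between the DSS + EA and control groups, against 457 and 16, and Itln1 did not pass the filter between the DSS + EA and DSS groups, so that it has no value there. The study's rule called 1280, 806 and 261 genes in the comparisons of DSS with control, DSS + EA with DSS and DSS + EA with control, against 5145, 4457 and 457, and 21 and 15 list genes in the first and second, against 37 and 25. Retnlb with DSS was not called in 11 of the 17 alternative fits (adjusted p from 0.000329 to 0.141).

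Leaving out 1 mouse gave 4082 to 6400, 3033 to 6061 and 107 to 772 genes called in the 3 comparisons, 2 to 3, 0 to 1 and 0 to 2 members called, and 32 to 47, 22 to 36 and 5 to 23 list genes called. Mptx1 ranged from -12.92 to -6.88 for DSS against control, from -2.21 to 3.66 for DSS + EA against DSS, with the change of sign without DSS mouse 2, and from -9.87 to -8.44 for DSS + EA against control. For DSS + EA against DSS, Ang4 ranged from -1.51 to 2.33 and Itln1 from -0.59, without DSS + EA mouse 2, to 2.95. The causes were not tested.

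The labels number the mice 1 to 3 in each group and do not say whether the numbers pair them. Deviations of same-numbered mice correlated between -0.16 and 0.105, and those of differently numbered mice between -0.204 and 0.256. With 3 mice per group these correlations cannot decide whether mice were paired. With the replicate number as a block, 4543, 3826 and 363 genes were called, 2, 0 and 2 members, and 37, 26 and 11 list genes. Mptx1 was at -9.32, 1.05 and -8.27, Ang4 between the DSS + EA and DSS groups changed sign to 0.62 (adjusted p = 0.736), and Retnlb with DSS missed the threshold (-3.57, adjusted p = 0.0517).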
